A study of Homo sapiens with 16 samples.

Results

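The replication-dependent histone genes analysed here are the genes whose symbol in the array annotation is H1-1 to H1-6 or begins with H2AC, H2BC, H3C or H4C and a digit. They make up 45 of the 19775 genes with a probe set of their own: 6 for the linker histone H1, 9 for H2A, 14 for H2B, 7 for H3 and 9 for H4. Each gene was read from 1 probe set, the brightest on average across the 16 arrays of those the annotation pairs with that gene alone. A further 19 symbols of these families lie only on probe sets shared between several genes, and those probe sets are given as groups. Of the 45 genes, 24 reached the median probe set level of 5.10 (log2) in at least 1 group, against 65.8% of all genes, and 21 lay below it in every group.

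The cells were SW480, an established human colorectal cancer line that carries a truncated APC protein and a stabilised beta-catenin. RNA from 4 groups was hybridised to 16 Affymetrix arrays, 4 per group, with replicates lettered A to D. The control, siTAZ and sibcat groups were cells stably carrying an empty vector and transfected with a control siRNA against GFP, an siRNA against TAZ (the product of WWTR1) or an siRNA against beta-catenin (the product of CTNNB1). The APC group was SW480 to which wild-type APC had been returned, and it received the same control siRNA. All groups grew in RPMI 1640 with serum, insulin, hydrocortisone and thioglycerol and received no other treatment. The labels give 1 siRNA condition per target and do not say whether the APC cells were 1 stable line or several. They call the samples biological replicates without describing separate cultures, so a p-value here covers only the variation among these samples, possibly technical. The design asks how the transcripts that respond to loss of TAZ compare with those that respond to loss of beta-catenin or to the return of APC, a scaffold of the complex that degrades beta-catenin in the absence of a Wnt signal.

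Replication-dependent histone genes lie in clusters and supply the proteins that package newly copied DNA. Their transcripts are made mainly in S phase and end in a stem-loop bound by SLBP, with no poly(A) tail, so their amount follows DNA synthesis in dividing cells. Some members, among them H2BC12, H2BC21, H2BC5, H2AC6 and H1-2, are also known to give polyadenylated transcripts, which are found in differentiated or non-dividing cells too. The labels do not state how the labelled cRNA was primed, and whether a value reflects stem-loop or polyadenylated RNA was not tested. In RNA from a whole culture, a smaller share of cells in a given phase and less RNA per cell cannot be told apart. A value below is a log2 expression level of a probe set, and a difference is the difference of group means of 4 arrays; a difference was called when its Benjamini-Hochberg adjusted p over all 19775 genes was under 0.05 in limma. The 3 comparisons with control share their 4 control arrays, so their values are set side by side and not counted as independent of each other.

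The arrays carried their labelled perturbations as follows. WWTR1 fell by 3.37 in siTAZ arrays, from 10.28 ± 0.11 to 6.91 ± 0.15 (SD, n = 4), and rose by 0.70 in sibcat and 0.72 in APC arrays. A further WWTR1 probe set differed by -2.89, 0.52 and 0.84 in siTAZ, sibcat and APC arrays, all called, and the remaining set fell by 3.48 in siTAZ arrays but was not called in sibcat (-0.22) or APC arrays (0.07). CTNNB1 fell by 2.96 in sibcat arrays, from 13.12 ± 0.16 to 10.16 ± 0.24. On the same probe set it was also called lower in APC arrays (-0.375) and was not called in siTAZ arrays (0.20). A further CTNNB1 probe set fell by 3.22 in sibcat arrays and was not called in siTAZ (0.07) or APC arrays (-0.51). The remaining CTNNB1 set rose by 0.40 in siTAZ and fell by 0.40 in sibcat and 0.58 in APC arrays, all called. The APC probe set used differed by 0.08 between APC and control arrays (limma adjusted p = 0.71), and of its 4 other probe sets 2 were higher there, by 0.41 (limma adjusted p = 0.0018) and 1.11 (limma adjusted p = 2.7e-05), and 2 were not called, at 0 and 0.14. Of 9 colon epithelial markers, 7 lay above 5.10; KRT20 at 2.74 and LGALS4 at 4.36 did not. The summed level of the 9 ran from 74.8 to 75.23 in control and 75.05 to 75.47 in sibcat arrays. It ran from 73.4 to 74 in siTAZ and 73.21 to 73.91 in APC arrays. It thus lay below control without overlap in the groups where every called histone member was lower. Of the 9, 1 rose and 3 fell in siTAZ, 2 rose and 1 fell in sibcat, and 0 rose (also at an unadjusted p under 0.05) and 4 fell in APC arrays by limma. In siTAZ arrays CDH1 (E-cadherin) fell by 1.13, KRT8 and KRT18 also fell, and CDX2, an intestinal transcription factor, rose by 0.48. In sibcat arrays VIL1 rose by 1.02 and CDH1 by 0.41, while CDX2 fell by 0.96. In APC arrays KRT8 fell by 0.52 and CDX2 by 0.44, and VIL1 and KRT18 fell too. The part of these markers in the histone results was not tested. Of 10 markers of leukocytes, fibroblasts, endothelium, liver and glia, 5 lay above it, the highest being COL1A1 at 6.89, while PTPRC stood at 3.09 and ALB at 2.84. The summed level of the 10 ran from 47.61 to 50.53 in control, 47.52 to 48.81 in siTAZ, 48.27 to 49.26 in sibcat and 48.14 to 49.63 in APC arrays, and 0 of the 10 were called against control by limma in any of the 3 groups (at an unadjusted p under 0.05, 1 was higher in sibcat arrays). Arrays of the same group correlated at 0.995 to 0.999. The difference between the 3' and 5' probe sets of ACTB, which grows as RNA is shortened, was 2.05 ± 0.16 in control and 2.57 ± 0.39 in siTAZ arrays. It was 2.30 ± 0.24 in sibcat and 2.08 ± 0.32 in APC arrays. An exact two-sided permutation test gave p = 0.057 for siTAZ against control and took no account of the replicate letters. In every group replicates A and B lay above C and D. Replicates A to D read 2.26, 2.09, 1.96 and 1.90 in control and 3.09, 2.62, 2.25 and 2.30 in siTAZ arrays. The part of this ACTB difference in the results was not tested beyond its use as a covariate.

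All histone members called in siTAZ and APC arrays were lower, most of them H2B or H2A genes, and those called in sibcat arrays were mixed. Not called were 28 of the 45 members in siTAZ, 35 in sibcat and 25 in APC arrays. Against control, 0 of the 45 members rose and 17 fell in siTAZ arrays, where 17.0% of all genes were called higher and 13.1% lower. In APC arrays 0 rose and 20 fell, against 16.6% higher and 17.1% lower among all genes. In sibcat arrays 8 rose and 2 fell, against 18.6% and 17.3%. At an unadjusted p under 0.05 in the same limma fit, 0 members were higher in siTAZ and 3 in APC arrays. The median member differed from control by -0.22 in siTAZ, -0.20 in APC and -0.0025 in sibcat arrays, beside medians over all genes of 0.015, 0.01 and 0. Among the 24 members that reached the median level the medians were -0.44, -0.76 and 0.11, and among the 21 dimmer members they were -0.15, 0.05 and -0.06. At least 2-fold falls were called for 7 members in siTAZ, 11 in APC and 0 in sibcat arrays. Among all 19775 genes such falls numbered 169, 495 and 280. An F test across the 4 groups called 24 of the 45 members, beside 55.6% of all genes.

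Centring each array on its median gene moved that gene by at most 0.0825 between groups, but it changed the split of the sibcat comparison from 8 higher and 2 lower to 5 and 5. The count of 8 also became 5 without sibcat replicate D or without control replicate C, and the count of 2 became 4 without control replicate C. With the replicate letter as a block, 1 member (H4C9) was called higher in APC arrays in place of 0, and 1 was also called without APC replicate A, B or D or without control replicate A. The siTAZ and APC counts of lower members stayed between 15 and 18 and between 18 and 20 when any replicate was left out.

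**Figure D1:**
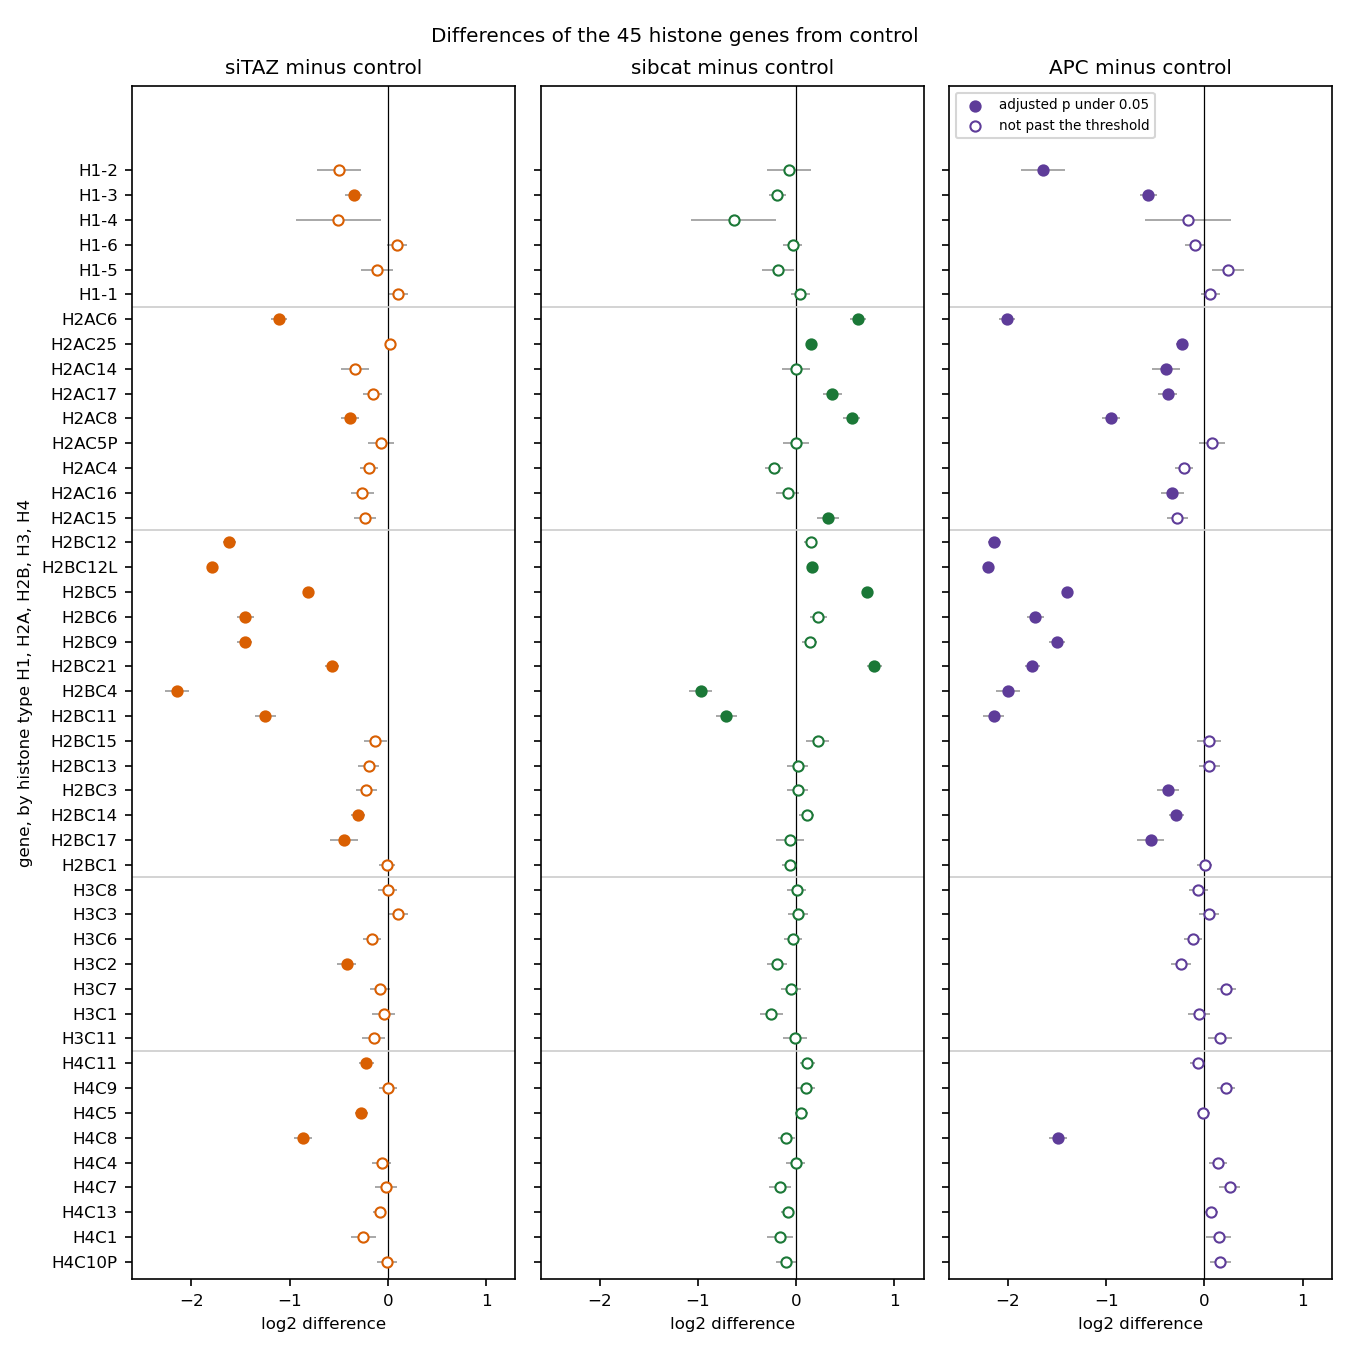
Log2 differences from control for the 45 histone genes, grouped from top to bottom as H1, H2A, H2B, H3 and H4, in siTAZ (left), sibcat (middle) and APC arrays (right); points are differences of means of 4 arrays, bars are limma standard errors, and filled points passed an adjusted p of 0.05. Most of the filled points left of 0 in the siTAZ and APC panels are H2B genes, 10 and 11 of 14, while H3 genes lie between -0.42 and 0.22 in all panels.

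Histone H2B, which pairs with H2A in the nucleosome core, held 10 of the 17 falls in siTAZ and 11 of the 20 in APC arrays. Of its 14 members, 10 fell and 0 rose in siTAZ arrays (median difference -0.69), or 71.4% lower beside 13.1% of all genes. In APC arrays 11 fell and 0 rose (median -1.45), or 78.6% lower beside 17.1%. In sibcat arrays 3 rose and 2 fell (median 0.12), or 21.4% and 14.3%, near the 18.6% and 17.3% of all genes. The promoters of H2BC12 and H2BC4, the members that mark the group, are shown together with those of H2BC21 and H2BC5, which also moved but in sibcat arrays the opposite way to H2BC4. Each sequence is the RefSeq window of 250 bases before the annotated start in GRCh38.p14, read 5' to 3' on the gene's strand: H2BC12 at chr6:27146859-27147108 (minus strand), H2BC4 at chr6:26123927-26124176 (minus), H2BC21 at chr1:149886683-149886932 (minus) and H2BC5 at chr6:26157871-26158120 (plus). Capitals mark the octamer ATTTGCAT, the CCAAT box and the TATA box motif TATAAA on either strand. Where motif matches adjoin or overlap the capitals run together.
H2BC12: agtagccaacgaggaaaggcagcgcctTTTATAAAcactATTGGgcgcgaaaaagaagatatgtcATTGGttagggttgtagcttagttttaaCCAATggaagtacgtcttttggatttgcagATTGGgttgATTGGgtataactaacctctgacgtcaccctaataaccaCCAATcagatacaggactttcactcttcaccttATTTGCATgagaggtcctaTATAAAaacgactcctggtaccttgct
H2BC4: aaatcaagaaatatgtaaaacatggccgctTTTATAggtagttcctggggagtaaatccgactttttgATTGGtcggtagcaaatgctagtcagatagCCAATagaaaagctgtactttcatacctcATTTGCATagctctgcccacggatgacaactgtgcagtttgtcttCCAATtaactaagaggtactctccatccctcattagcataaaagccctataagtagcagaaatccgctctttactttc
H2BC21: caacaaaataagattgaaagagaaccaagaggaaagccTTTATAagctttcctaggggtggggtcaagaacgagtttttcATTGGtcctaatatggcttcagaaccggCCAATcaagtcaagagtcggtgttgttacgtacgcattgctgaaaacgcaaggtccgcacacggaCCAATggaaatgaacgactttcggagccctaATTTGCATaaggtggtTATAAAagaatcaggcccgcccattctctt
H2BC5: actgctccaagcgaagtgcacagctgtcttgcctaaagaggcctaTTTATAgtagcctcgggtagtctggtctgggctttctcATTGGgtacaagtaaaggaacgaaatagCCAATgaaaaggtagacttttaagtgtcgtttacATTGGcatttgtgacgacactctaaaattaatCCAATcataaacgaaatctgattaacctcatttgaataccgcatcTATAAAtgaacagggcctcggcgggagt

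The octamer is the sequence bound by POU2F1 (OCT1), a factor long known from H2B promoters. It begins 46 bases before the start in H2BC12 and in H2BC21 and 123 bases before it in H2BC4, and the H2BC5 window holds no exact match.

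H2BC12 stood at 12.34, 12.34, 12.49 and 12.51 in control replicates A to D, at 10.83, 10.69, 10.88 and 10.83 in siTAZ, at 12.50, 12.53, 12.62 and 12.63 in sibcat and at 10.18, 10.19, 10.41 and 10.34 in APC arrays. The siTAZ and APC arrays lay below the control arrays without overlap, the APC arrays were the lowest, and the sibcat and control ranges overlapped slightly. The gene was thus 3.06-fold lower in siTAZ arrays (log2 difference -1.61 ± 0.07 SE, limma adjusted p = 2.3e-11) and 4.41-fold lower in APC arrays (-2.14, limma adjusted p = 1.4e-13). In sibcat arrays the difference was 0.15 (limma adjusted p = 0.095), and it was called with the replicate letter as a block (adjusted p = 0.013). An exact two-sided permutation test of 4 against 4 arrays gave p = 0.0286 for siTAZ and for APC against control, the smallest it can give, and 0.0571 for sibcat; over the 12 such tests made on H2BC12 and H2BC4 these became 0.0343 and 0.0623 after Benjamini-Hochberg adjustment.

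H2BC4 fell in all 3 perturbed groups. Its levels were 6.65, 6.69, 6.81 and 6.88 in control, 4.62, 4.60, 4.91 and 4.30 in siTAZ, 5.76, 5.74, 5.89 and 5.75 in sibcat and 4.76, 4.69, 5.09 and 4.48 in APC arrays. All 3 perturbed groups lay below control without overlap, sibcat was intermediate, and siTAZ and APC overlapped. The fall was 4.44-fold in siTAZ (log2 difference -2.15 ± 0.12 SE, limma adjusted p = 1.0e-09), 1.96-fold in sibcat (-0.97, limma adjusted p = 5.9e-06) and 4.01-fold in APC arrays (-2.00, limma adjusted p = 8.8e-10). The siTAZ and APC means lay below the median probe set level, so the sizes of those falls are uncertain. Exact two-sided permutation tests gave p = 0.0286 for each of the 3 comparisons and 0.429 for siTAZ against APC.

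H2BC11 was the other H2B member that fell in sibcat arrays. It read 6.01, 6.23, 6.11 and 6.01 in control and 5.44, 5.43, 5.33 and 5.32 in sibcat arrays, with 4.92, 4.87, 4.92 and 4.66 in siTAZ and 4.07, 4.15, 3.54 and 4.03 in APC arrays. The 4 groups did not overlap at any point, in the order control, sibcat, siTAZ, APC. The differences from control were -0.71 in sibcat, -1.25 in siTAZ and -2.14 in APC arrays (limma adjusted p = 4.4e-05, 1.3e-07 and 6.5e-11), and here too the siTAZ and APC means lay below 5.10.

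H2BC5 and H2BC21 rose in sibcat arrays while they fell in the other groups. H2BC5 was measured at 9.91, 9.97, 10.03 and 9.97 in control, 9.24, 9.08, 9.18 and 9.14 in siTAZ, 10.70, 10.71, 10.67 and 10.67 in sibcat and 8.62, 8.50, 8.61 and 8.54 in APC arrays. H2BC21 was measured at 8.34, 8.28, 8.31 and 8.22 in control, 7.81, 7.74, 7.60 and 7.73 in siTAZ, 9.22, 9.15, 8.93 and 9.04 in sibcat and 6.67, 6.34, 6.60 and 6.53 in APC arrays. For each gene the 4 groups were fully separated, with sibcat highest, control next, then siTAZ, and APC lowest. H2BC5 was 1.64-fold higher in sibcat (0.72 ± 0.05 SE, limma adjusted p = 4.0e-09), 1.75-fold lower in siTAZ (-0.81) and 2.64-fold lower in APC arrays (-1.40). H2BC21 was 1.74-fold higher in sibcat (0.80 ± 0.08 SE, limma adjusted p = 2.5e-07), 1.48-fold lower in siTAZ (-0.57) and 3.37-fold lower in APC arrays (-1.75). The other H2BC5 probe set moved the same way, by -0.88 in siTAZ, 0.48 in sibcat and -1.25 in APC arrays. Both H2BC5 sets are of a kind that can match several transcripts, so they may share signal from other genes.

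**Figure D2:**
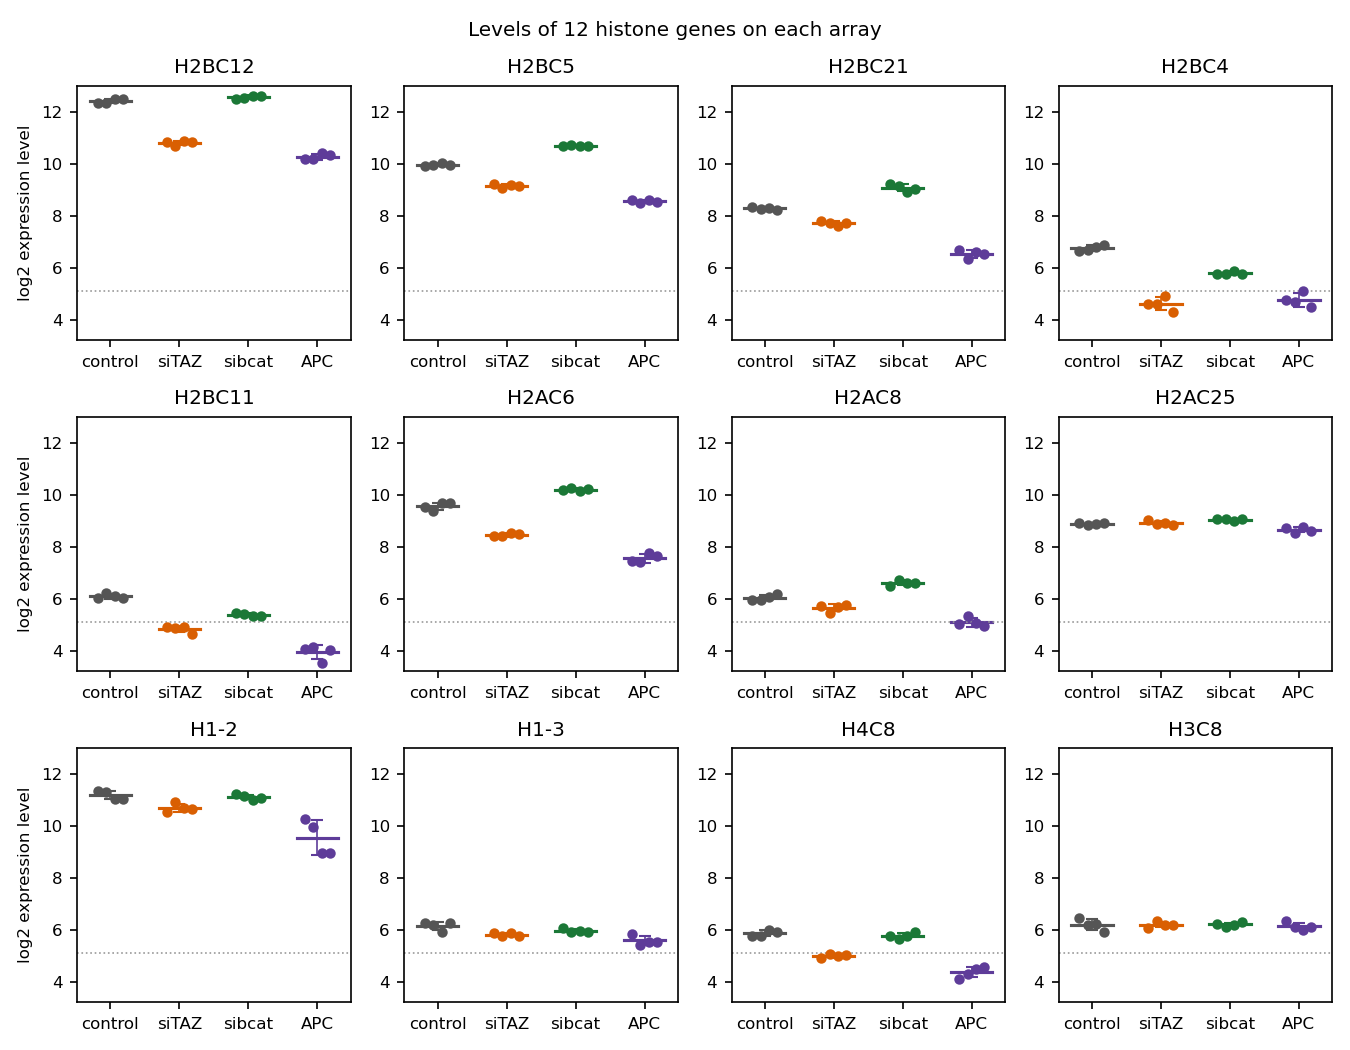
Log2 expression level of 12 histone genes on each of the 16 arrays, by group; points are arrays, horizontal bars are group means, error bars are SD (n = 4), and the dotted line is the median probe set level of 5.10. H2BC12, H2BC5, H2BC21, H2AC6 and H2AC8 are lowest in APC arrays and higher in sibcat than in siTAZ arrays, and H3C8 lies at 6.14 to 6.20 in every group mean.

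H2BC12L, H2BC6 and H2BC9 followed H2BC12 in siTAZ and APC arrays. H2BC12L fell from 10.67 ± 0.07 in control to 8.88 ± 0.04 in siTAZ and 8.47 ± 0.10 in APC arrays. H2BC6 fell from 8.98 ± 0.13 to 7.53 ± 0.09 and 7.26 ± 0.19, and H2BC9 from 8.64 ± 0.08 to 7.18 ± 0.18 and 7.14 ± 0.08. In each of these falls every array of the lower group lay below every control array. In sibcat arrays H2BC12L was called higher by 0.17 (limma adjusted p = 0.023), a call lost without sibcat replicate D (adjusted p = 0.065), without control replicate C (0.083) and after centring (0.11). H2BC6 differed there by 0.22 (limma adjusted p = 0.050) and was called with the replicate block (adjusted p = 0.033) and without control replicate A (0.018); H2BC9 differed by 0.14 (limma adjusted p = 0.21). H2B genes are nearly identical in their coding sequence. H2BC12L, H2BC5, H2BC6, H2BC9 and H2BC21 are read by probe sets of the kinds marked as matching several transcripts, so their values may share signal. H2AC6, H2AC14, H3C2, H3C8 and H4C11 are read by such probe sets too. Without such probe sets 9 members were called lower in siTAZ and 13 in APC arrays, and H2BC12, H2BC4 and H2BC11 were among them. The remaining 6 H2B members, H2BC1, H2BC3, H2BC13, H2BC14, H2BC15 and H2BC17, had differences between -0.55 and 0.22. H2BC14 and H2BC17 were called lower in siTAZ and APC arrays and H2BC3 in APC arrays, but of these 6 H2BC15 alone reached the median level in any group.

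The 20 probe sets shared between several genes, at least 1 of them a histone of these families, were tested among all probe sets. Over all probe sets 10.5% were called higher and 9.77% lower in siTAZ arrays, 13.4% and 12.2% in sibcat arrays and 12.7% and 11.3% in APC arrays. Of the 20, 0 rose and 12 fell in siTAZ, 3 rose and 3 fell in sibcat, and 0 rose and 12 fell in APC arrays. The 5 that hold H2B genes alone fell in siTAZ (median difference -1.39) and in APC arrays (median -1.57). The 6 that hold H4 genes had medians of -0.15 and -0.05; 3 of them were called lower in siTAZ and 1 in APC arrays, and 1 fell by 1.44 and 1.3 in these groups (limma adjusted p = 2.4e-07 and 4.4e-07). In sibcat arrays 2 of the 6 H4 sets were called lower (median difference -0.11). Among these was the brightest of the 20 sets, at 12.70 in control, which fell by 0.34 (limma adjusted p = 0.00029). Of the 5 that hold H2A genes, 2 fell in siTAZ and 4 in APC arrays, the largest APC differences being -1.91 and -1.62. Both sets that hold H2A and H3 genes fell in siTAZ (by 1.02 and 0.70) and in APC arrays (by 1.04 and 0.70). Of the 2 that hold H3 genes alone, 1 rose by 0.94 in sibcat arrays. A value on such a probe set cannot be assigned to a single gene.

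Of the 9 histone H2A members, 2 fell and 7 were not called in siTAZ arrays (22.2% lower, beside 13.1% of all genes; median difference -0.23). In APC arrays 6 fell (66.7%, beside 17.1%; median -0.32), and in sibcat arrays 5 rose (55.6%, beside 18.6%; median 0.16). By limma 0 moved the other way in any of the 3, and at an unadjusted p under 0.05 1 was lower in sibcat arrays. H2AC6 showed the largest differences of the H2A members: it read 9.52, 9.39, 9.68 and 9.67 in control, 8.42, 8.40, 8.54 and 8.48 in siTAZ, 10.18, 10.26, 10.15 and 10.21 in sibcat and 7.44, 7.40, 7.77 and 7.63 in APC arrays. The 4 groups were separate, in the same order as for H2BC5. The H2AC6 probe set is of the kind that can match several transcripts, so its values may include signal from other genes. H2AC6 was 2.15-fold lower in siTAZ (-1.10 ± 0.08 SE, limma adjusted p = 2.0e-08), 1.55-fold higher in sibcat (0.64, limma adjusted p = 7.2e-06) and 4.01-fold lower in APC arrays (-2.00, limma adjusted p = 4.1e-12).

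H2AC8 was found at 5.97, 5.95, 6.07 and 6.19 in control, 5.72, 5.46, 5.68 and 5.77 in siTAZ, 6.48, 6.72, 6.62 and 6.62 in sibcat and 5.04, 5.35, 5.05 and 4.95 in APC arrays, again with no overlap between groups. Its differences from control were -0.39, 0.56 and -0.95 (limma adjusted p = 0.0029, 7.7e-05 and 2.5e-07). H2AC17 rose by 0.37 in sibcat and fell by 0.38 in APC arrays (limma adjusted p = 0.0069 and 0.0068) and differed by -0.16 in siTAZ arrays (limma adjusted p = 0.29). H2AC25 fell by 0.23 in APC arrays (limma adjusted p = 0.0044), and its rise of 0.16 in sibcat arrays (limma adjusted p = 0.042) was lost with any replicate left out except sibcat C (adjusted p from 0.050 to 0.097). The other H2AC25 probe set differed by at most 0.06 in size in any group. H2AC14 fell by 0.39 in APC arrays (limma adjusted p = 0.047), a call lost without APC replicate B, C or D or control replicate A, B or C (adjusted p from 0.051 to 0.16). H2AC15 rose by 0.33 in sibcat and H2AC16 fell by 0.33 in APC arrays, both below the median level, while H2AC4 and the pseudogene H2AC5P were not called in any of the 3 comparisons.

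Linker histones H1, which bind the DNA that enters and leaves the nucleosome, had 1 of 6 members called lower in siTAZ (16.7%, near the 13.1% of all genes) and 2 of 6 in APC arrays (33.3%, beside 17.1%). In sibcat arrays 0 were called by limma, and 1 was lower at an unadjusted p under 0.05. H1-2 read 11.34, 11.31, 11.05 and 11.05 in control, 10.52, 10.91, 10.67 and 10.65 in siTAZ, 11.22, 11.16, 11.01 and 11.07 in sibcat and 10.28, 9.96, 8.97 and 8.97 in APC arrays. The APC arrays lay lowest and spread widely, with replicates A and B above C and D; the siTAZ arrays also lay below every control array. The fall in APC arrays was 3.12-fold (-1.64 ± 0.22 SE, limma adjusted p = 1.7e-05), being -1.21 over replicates A and B alone and -2.08 over C and D alone. The siTAZ difference of -0.50 did not pass in the fit of all 16 arrays (limma adjusted p = 0.11) and passed when the 8 arrays compared were fitted alone (adjusted p = 0.0038), where the APC spread does not enter. H1-3 fell by 0.35 in siTAZ (limma adjusted p = 0.0053) and by 0.57 in APC arrays (limma adjusted p = 5.7e-05); in sibcat arrays it differed by -0.19 and was called without control replicate C (-0.27, adjusted p = 0.017). H1-4 was not called, with levels that ran from 4.51 to 6.54 within the control group alone. H1-1, H1-5 and H1-6 were not called and differed from control by -0.18 to 0.24.

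Histones H3 and H4 form the core tetramer of the nucleosome. Of 7 H3 members, 1 fell in siTAZ arrays (14.3%, near the 13.1% of all genes) and 0 were called by limma in sibcat or APC arrays, where 1 was lower in each and 1 higher in APC at an unadjusted p under 0.05. H3C8, the H3 member that reached the median level, read 6.45, 6.20, 6.23 and 5.91 in control, 6.08, 6.34, 6.20 and 6.17 in siTAZ, 6.22, 6.11, 6.20 and 6.28 in sibcat and 6.32, 6.12, 6.0 and 6.11 in APC arrays. All 4 groups overlapped, and the differences from control were 0, 0.005 and -0.06, each with an SE of 0.10. The H3C8 probe set is also of the kind that can match several transcripts. The H3 member that fell in siTAZ arrays was H3C2, by 0.42 from 4.14 ± 0.12 (limma adjusted p = 0.0038), below the median level; the call was lost with the ACTB difference as a covariate (-0.34, adjusted p = 0.0503) and over replicates A and B alone (-0.38, adjusted p = 0.15). In APC arrays H3C2 differed by -0.24 and was called without APC replicate C (-0.30, adjusted p = 0.039). H3C6 has probe sets that disagree: the set used differed by -0.03 in sibcat and -0.12 in APC arrays, and the other by 0.59 and -0.72 (limma adjusted p = 0.0014 and 0.00024 over all probe sets). Without siTAZ replicate C the used set was called lower in siTAZ arrays (-0.26, adjusted p = 0.015). H3C3 stood at 4.94 to 5.04 in every group mean, and H3C1, H3C7 and H3C11 differed from control by -0.25 to 0.22.

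Of 9 H4 members, 3 fell in siTAZ (33.3%, beside 13.1% of all genes) and 1 fell in APC arrays (11.1%, beside 17.1%), and 0 were called in sibcat arrays by limma or at an unadjusted p under 0.05. H4C8 was measured at 5.77, 5.77, 6.0 and 5.90 in control, 4.91, 5.06, 4.97 and 5.04 in siTAZ, 5.74, 5.64, 5.77 and 5.90 in sibcat and 4.11, 4.30, 4.49 and 4.57 in APC arrays. The sibcat and control arrays overlapped, and the siTAZ and then the APC arrays lay lower, apart from each other. H4C8 was 1.82-fold lower in siTAZ (-0.86 ± 0.09 SE, limma adjusted p = 1.2e-06) and 2.81-fold lower in APC arrays (-1.49, limma adjusted p = 7.7e-10), both to means below 5.10. Its other probe set, of a kind that can match several transcripts, differed by -0.64 and -0.94. In sibcat arrays that set differed by -0.45 (limma adjusted p = 0.066 over all probe sets) and the set used by -0.10. H4C5 fell by 0.27 in siTAZ arrays (limma adjusted p = 0.0051). H4C11 fell there by 0.22 (limma adjusted p = 0.039), a call lost without siTAZ replicate B or D or control replicate C or D (adjusted p from 0.080 to 0.12), over replicates A and B alone (0.25) and with the ACTB difference as a covariate (-0.11, adjusted p = 0.38). H4C9 differed by 0.22 in APC arrays (limma adjusted p = 0.078) and was called with the replicate block (adjusted p = 0.025) and without APC replicate D (adjusted p = 0.043). H4C1, H4C4, H4C7, H4C13 and the pseudogene H4C10P were not called and differed by -0.25 to 0.26.

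The H4C8 promoter window, at chr6:26285535-26285784 on the minus strand of GRCh38.p14 (RefSeq), is shown beside the H2B windows. It holds no exact match to the 3 motifs marked in theirs. Near matches, also to the TATA box motif, were not searched and are not marked. The part of any motif in the falls was not tested.
H4C8: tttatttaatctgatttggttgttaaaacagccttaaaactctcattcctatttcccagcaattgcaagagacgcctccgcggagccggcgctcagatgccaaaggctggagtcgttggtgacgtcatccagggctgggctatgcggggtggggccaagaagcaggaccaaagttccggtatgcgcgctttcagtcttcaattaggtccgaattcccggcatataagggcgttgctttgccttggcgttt

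**Figure D3:**
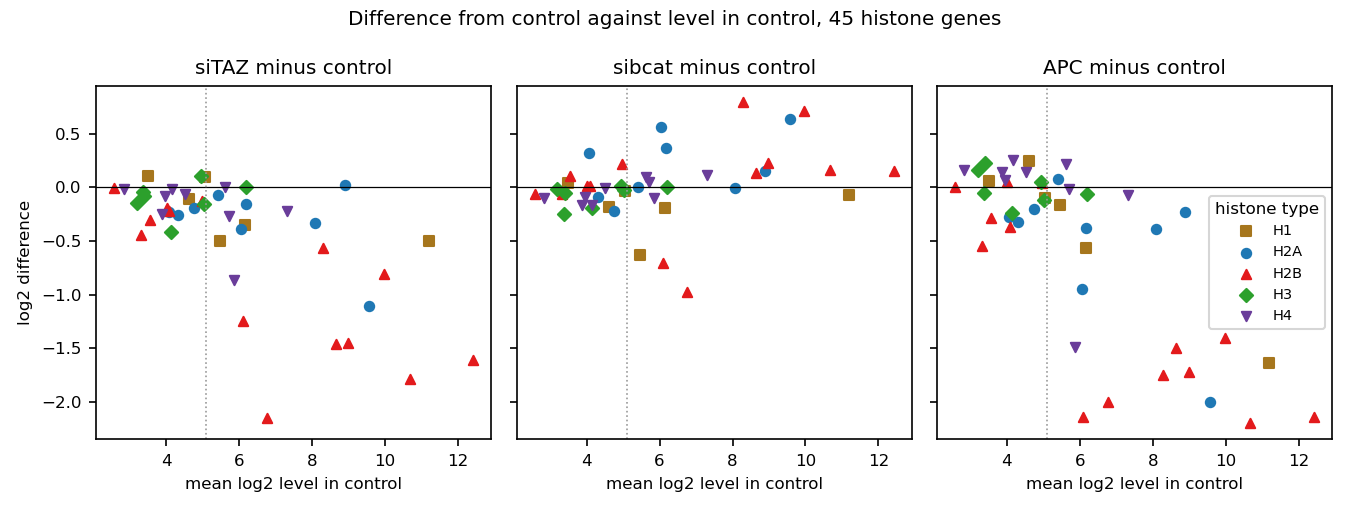
Log2 difference from control (vertical axis) against the mean log2 level in control (horizontal axis) for the 45 histone genes in siTAZ, sibcat and APC arrays; each symbol is a gene, its shape and colour give the histone type, and the dotted line is the median probe set level of 5.10. Falls of 1 log2 unit or more lie to the right of the line, and genes to its left, whose signal may be largely background, lie between -0.55 and 0.33.

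Differences between the perturbed groups took no control array into their means, but the control arrays entered the shared estimate of spread behind the calls. Against sibcat arrays, 0 members were higher (also at an unadjusted p under 0.05) and 18 lower in siTAZ arrays (18.9% and 17.8% of all genes), and 3 were higher and 20 lower in APC arrays (20.3% and 21.7%). The 3 higher were H1-5, H3C7 and H4C7, all below the median level; without sibcat replicate C this count was 1, and after centring it was 6. In siTAZ against sibcat arrays 1 member was called higher without sibcat replicate D. H2AC6 was 3.34-fold lower in siTAZ than in sibcat arrays and 6.23-fold lower in APC than in sibcat arrays (limma adjusted p = 2.5e-11 and 1.3e-13). H2BC21 was 2.58-fold and 5.86-fold lower in the same comparisons (limma adjusted p = 2.4e-10 and 9.1e-14). H2BC4 was 2.26-fold and 2.04-fold lower (limma adjusted p = 5.7e-07 and 2.2e-06).

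Between siTAZ and APC arrays, 11 members were higher and 4 lower in siTAZ (22.4% and 19.9% of all genes). The higher ones were H1-2, H2AC6, H2AC8, H2AC25, H2BC5, H2BC6, H2BC11, H2BC12, H2BC12L, H2BC21 and H4C8. The call on H2BC6 (0.27, limma adjusted p = 0.016) was lost without siTAZ replicate A or APC replicate B or D (adjusted p from 0.051 to 0.062), over C and D alone (0.36), after centring (0.086) and with the ACTB difference as a covariate (0.11). H2BC21 differed most among them, at 2.27-fold (1.18 ± 0.08 SE, limma adjusted p = 1.1e-09), followed by H1-2 at 2.21-fold (limma adjusted p = 0.00044). H2BC4 and H2BC9 differed by -0.15 ± 0.12 SE and 0.04 ± 0.08 SE (limma adjusted p = 0.38 and 0.73). The 4 lower ones were H3C7, H3C11, H4C1 and H4C5, of which H4C5 reached the median level and differed by -0.26. That count was 2 without siTAZ replicate A or B, 1 without siTAZ replicate D and 12 after centring, which set the split at 10 higher and 12 lower.

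Several H2A and H2B genes lie head to head, each pair with a common stretch between the start sites. In 4 pairs on chromosome 6 both genes were measured: H2BC4 with H2AC6 (245 bases between the starts), H2AC14 with H2BC14 (244), H2AC15 with H2BC15 (193) and H2AC17 with H2BC17 (239). The H2BC4 window printed above is thus nearly all shared with H2AC6. In siTAZ and APC arrays H2BC4 and H2AC6 fell together. In sibcat arrays they parted, with H2BC4 lower by 0.97 and H2AC6 higher by 0.64. Unlike the H2BC4 probe set, that of H2AC6 is of the kind that can match several transcripts. H2BC14 and H2BC17, both below the median level in every group, fell in siTAZ and APC arrays. Their brighter partners H2AC14 and H2AC17 were called lower in APC arrays alone, though whether partners differ from each other was not tested. H2AC15, also below the median level in every group, rose by 0.33 in sibcat arrays and H2BC15 differed by 0.22 (limma adjusted p = 0.19).

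**Figure D4:**
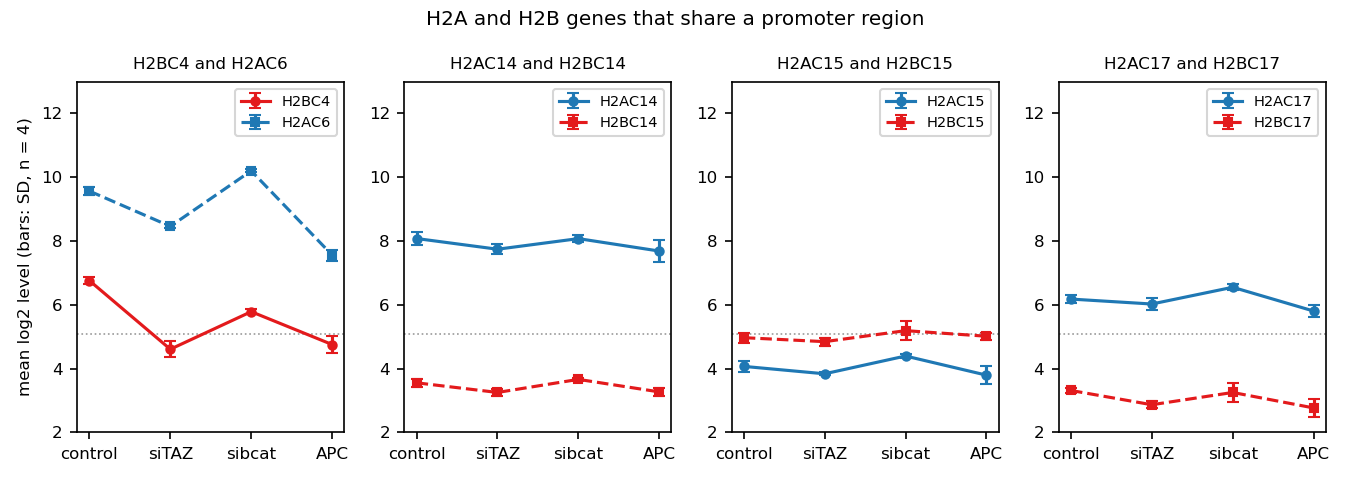
Mean log2 levels in the 4 groups for the 4 pairs of H2A (blue) and H2B genes (red) that share a region between their starts; bars are SD (n = 4) and the dotted line is the median probe set level of 5.10. Levels of different genes are not comparable with each other. H2BC4 and H2AC6 fall in siTAZ and APC arrays, and in sibcat arrays H2AC6 is above and H2BC4 below its control mean.

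Across promoters, windows of the same length were searched on both strands for the 3 motifs, with 1 window per gene for 27305 genes and for 40 of the 45 members; H2AC5P, H2BC12L, H3C11, H4C1 and H4C10P had no window. ATTTGCAT was found in 16 members (40.0%) and in 1.66% of all windows, CCAAT in 35 (87.5%) and in 33.0%, and TATAAA in 27 (67.5%) and in 11.1%. Matches of different motifs did not overlap in any member window. The 16 members with an octamer are 10 H2B and 6 H2A genes. The head-to-head partners H2BC4 and H2AC6, H2AC14 and H2BC14, and H2AC17 and H2BC17 share the same octamer within each pair. The 16 members thus do not hold 16 separate sites. Of these 16, 10 fell in siTAZ, 14 fell in APC, and 4 rose and 2 fell in sibcat arrays. Of the 24 members without it, 6 fell in siTAZ, 5 fell in APC and 3 rose in sibcat arrays. Within H2B, 8 of 10 with and 1 of 3 without an octamer fell in siTAZ arrays, and 9 of 10 and 1 of 3 in APC arrays. Within H2A, 2 of 6 with and 0 of 2 without it fell in siTAZ arrays, and 5 of 6 and 1 of 2 in APC arrays. H2BC13 and H2BC15, which hold none and were not called lower, averaged 3.98 and 5.005 over all arrays, below 5.10. These splits by octamer take no account of signal level. The 211 other genes on the arrays with an octamer in the window were lower in 9.95% in siTAZ, 12.8% in sibcat and 15.2% in APC arrays, beside 14.1%, 18.4% and 17.6% of the 15133 other genes without it. H2BC5 fell without an exact octamer. A match is a description of letters in the window. Of the 24 members without the octamer 19 are H1, H3 or H4 genes, where 0 of 19 windows hold it. Histone type and octamer thus cannot be told apart in the split of 16 against 24 members.

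For the lists of genes around the histones, counts are to be read beside the 17.0% and 13.1% of all genes called higher and lower in siTAZ, 18.6% and 17.3% in sibcat and 16.6% and 17.1% in APC arrays. Of 9 histone genes that are transcribed outside S phase too, 2 rose and 3 fell in siTAZ, 1 rose and 3 fell in sibcat, and 2 rose and 2 fell in APC arrays (22.2% each). H2AZ1, which encodes the variant H2A.Z, fell by 3.24 in sibcat arrays, from 13.30 ± 0.11 to 10.05 ± 0.17 (limma adjusted p = 1.4e-14), and differed by -0.09 in siTAZ and in APC arrays. CENPA, the centromeric H3 variant, fell by 0.90 in siTAZ and 0.58 in sibcat arrays and differed by 0 in APC arrays. H2AX, which is phosphorylated at DNA breaks, fell by 0.47, 0.40 and 0.46 in siTAZ, sibcat and APC arrays. H2AZ2, which encodes another H2A.Z, fell by 0.46 in siTAZ and 0.14 in APC arrays and differed by -0.04 in sibcat arrays. H2AJ, a variant H2A, rose by 0.24, 0.46 and 0.37.

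Of 22 genes that transcribe or process histone mRNA, 4 rose and 8 fell in siTAZ, 1 rose and 14 fell in sibcat, and 3 rose and 5 fell in APC arrays (medians -0.12, -0.31 and -0.02). SLBP, the stem-loop binding protein, fell by 0.41 in siTAZ and 0.63 in sibcat arrays and differed by 0.08 in APC arrays. CPSF3, the endonuclease that cuts histone pre-mRNA, read 10.61, 10.51, 10.63 and 10.59 in control and 8.28, 8.34, 8.46 and 8.47 in sibcat arrays, a fall of 2.20 (limma adjusted p = 2.0e-14). Its fall of 0.18 in siTAZ arrays (limma adjusted p = 0.019) was lost without siTAZ replicate A (adjusted p = 0.056) or control replicate C (0.057) and with the ACTB difference as a covariate (-0.10, adjusted p = 0.21). LSM11, a part of the U7 particle that guides this cut, rose by 0.96 in siTAZ and fell by 1.04 in sibcat arrays. CCNE2 fell in all 3 groups (by 0.38, 0.64 and 0.63), and CDK2, whose kinase acts with cyclin E, fell by 0.51 in sibcat and 0.61 in APC arrays. NPAT, the coactivator of histone transcription, which is named here after its values were seen, differed by 0.10 in siTAZ (limma adjusted p = 0.39) and fell by 0.30 in sibcat and 0.28 in APC arrays (limma adjusted p = 0.0033 and 0.0060). CSTF3 rose by 0.99 in APC and 0.31 in siTAZ arrays on a probe set of the kind that can match several transcripts, and without such probe sets it differed by 0.10 and -0.21.

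Of 24 S-phase replication genes, 2 rose and 13 fell in siTAZ (median -0.20), 0 rose and 24 fell in sibcat (median -0.56; 0 were higher at an unadjusted p under 0.05 too), and 11 rose and 2 fell in APC arrays (median 0.13). PCNA, the sliding clamp of DNA polymerase, fell by 0.66 in siTAZ and 0.42 in sibcat arrays and differed by 0.07 in APC arrays (limma adjusted p = 0.57). MCM5, a subunit of the replicative helicase, fell by 0.55 in sibcat arrays, rose by 0.56 in APC arrays and differed by 0.13 in siTAZ arrays. GINS1, which joins the helicase, fell by 0.42 in siTAZ and 1.38 in sibcat arrays. In siTAZ arrays 13 of the 24 replication genes and 17 of the 45 histone genes were called lower. These counts were 24 and 2 in sibcat arrays and 2 and 20 in APC arrays. Whether the replication and histone differences are related was not tested. Of 20 histone chaperone and acetylation genes, 4 rose and 6 fell in siTAZ, 0 rose (1 at an unadjusted p under 0.05) and 13 fell in sibcat, and 4 rose and 3 fell in APC arrays. SUPT16H, a subunit of the FACT chaperone, fell by 0.33 in sibcat and 0.44 in APC arrays. ASF1B, which carries new H3 and H4, fell by 0.54 in siTAZ arrays and by 0.26 in sibcat arrays (limma adjusted p = 0.046); the sibcat call was lost without sibcat replicate B, C or D or control replicate A, B or D (adjusted p from 0.057 to 0.15).

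Of 12 genes of quiescence and cell-cycle exit, 5 rose and 4 fell in siTAZ, 8 rose and 2 fell in sibcat, and 2 rose and 7 fell in APC arrays. CDKN1B, the inhibitor p27, rose by 0.59 in siTAZ and 0.98 in sibcat arrays and fell by 0.26 in APC arrays, where the call (limma adjusted p = 0.027) was lost without APC replicate A or D or control replicate C or D (adjusted p from 0.066 to 0.096). CDKN1C, the inhibitor p57, rose by 0.37 in siTAZ arrays and fell by 1.92 in sibcat and 1.27 in APC arrays. The part of cell-cycle genes in the histone differences was not tested.

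**Figure D5:**
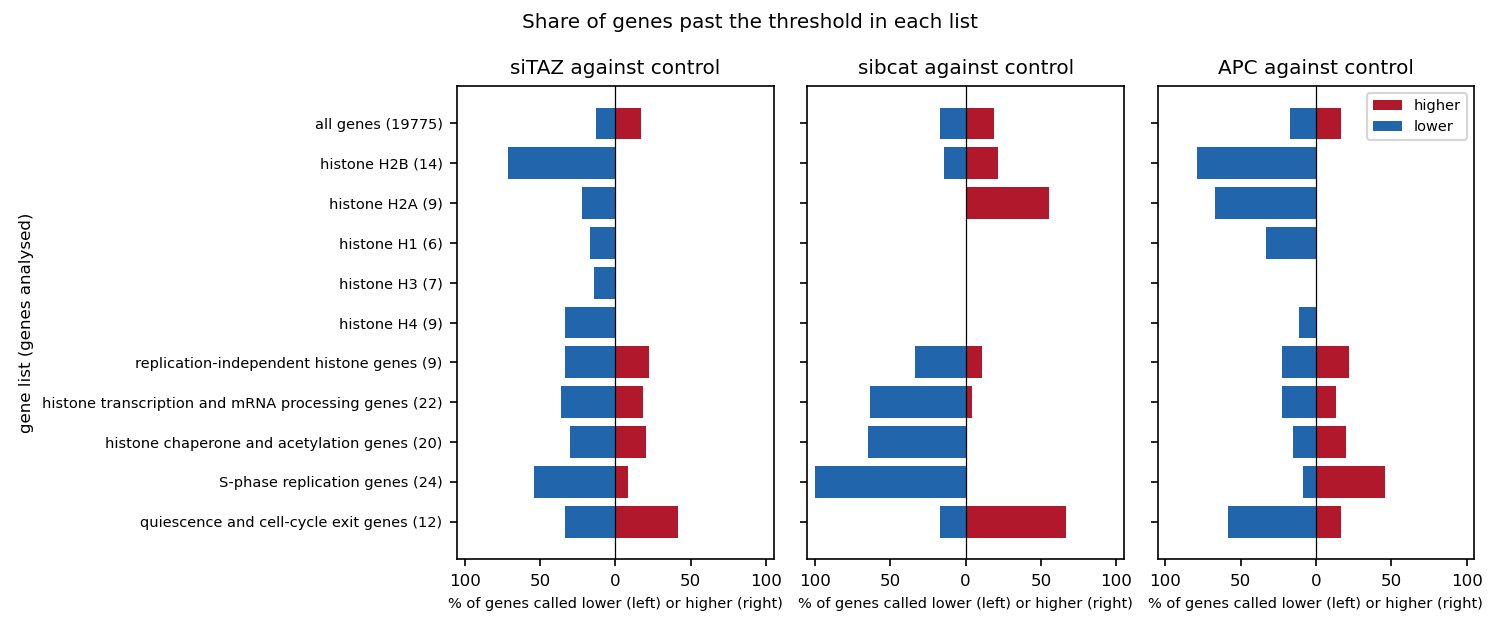
Share of genes called higher (right, red) and lower (left, blue) against control in siTAZ, sibcat and APC arrays for all genes, the 5 histone types and 5 lists of related genes, with the number of genes in brackets; the horizontal axis is in percent and bars start at 0. H2B bars point left in siTAZ and APC arrays (71.4% and 78.6%), while all 24 S-phase replication genes point left in sibcat arrays.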

How the data were processed

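The authors deposited 1 table of log2 expression values for 54675 probe sets on 16 arrays, made with RMA per the submitters' processing notes, which give no version. RMA corrects the background, gives all arrays the same distribution of intensities and summarises each probe set, so a shift in RNA shared by all genes cannot be seen. The base of the logarithm was read from the range of the values, 1.8 to 14.56, given to 2 decimals. The arrays have no counts behind them, and their number limits the precision. Of the probe sets, 41097 were annotated to 1 gene and 1801 to several, and no filter on dim probe sets was used.

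All 16 arrays entered 1 fit in limma 3.58.1 (R 4.3.3; lmFit, eBayes, no block), with 6 comparisons and Benjamini-Hochberg adjustment over all 19775 genes in each; the threshold was 0.05. The script was tested on simulated data first. The members, lists and tests were chosen with earlier results of these data known. The text names H2BC4, H2BC12 and the 4 members of each histone type with the highest means. It also names the other called members whose groups did not overlap and that reached 5.10. From each list the rule takes the 4 most changed genes per comparison with control, and it takes the targets. Other members are given by range or in brief. Cell type markers apart, all 25 members and 21 others of the 79 genes this gave are used, plus NPAT from outside it. Some items are not reported here. Same-lettered arrays deviated together with r over 0.1 for every letter in all comparisons but siTAZ with control (D, 0.0921) and siTAZ with APC (A, 0.0843), so the letters pair the arrays in the other 4. Promoter windows and gene symbols are from RefSeq, GRCh38.p14. Figures were drawn with matplotlib 3.10.9.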

Additional observations from a re-analysis of the deposited data

Results flagged for a closer look

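A single array was tested against the other 3 of its group for 25 histone genes and 22 other genes named with values. The cell type markers were not among them. Of these 188 tests, 10 set an array apart by Dixon's criterion at 95%, and chance gives about 1 in 20. Among the histone genes these were H2BC4 at 5.89 in sibcat replicate C (the nearest other array at 5.76), H2BC12L at 10.88 in sibcat replicate D (10.83), H1-3 at 6.05 in sibcat replicate A (5.94), H2AC17 at 6.07 in APC replicate C (5.75), H3C2 at 3.50 in APC replicate A (4.00) and H3C3 at 5.01 in APC replicate B (4.98). Among other genes they were H2AZ1 at 13.26 in siTAZ replicate D (13.19), LSM11 at 7.96 in siTAZ replicate A (7.86), ASF1B at 8.42 in sibcat replicate A (8.16) and CSTF3 at 9.20 in control replicate A (9.04). Causes were not tested.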

How the results depend on the processing

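Of 82 calls on named members, 63 kept their direction and side of the threshold in every alternative in which they could be made. Leaving out probe sets marked as matching several transcripts gave 9 members lower in siTAZ (median -0.16), 3 higher in sibcat and 13 lower in APC arrays (median -0.10) against control, 11 lower for siTAZ and 13 lower for APC against sibcat (median -0.0625), and 6 higher for siTAZ against APC (median -0.01); fewer members are tested there. With only genes that reach the median level, the medians were -0.44, 0.11 and -0.76 against control, -0.48 and -0.89 against sibcat and 0.22 for siTAZ against APC, with 0 members higher for APC against sibcat and 2 lower for siTAZ against APC. Centring gave a median of -0.30 for siTAZ and 5 higher and 5 lower for sibcat against control, 6 higher for APC against sibcat, and 12 lower with a median of -0.04 for siTAZ against APC. The replicate block gave 1 higher for APC against control and 7 lower for siTAZ against APC, and changed no other count by over 1.5 times. Blocking on the pair of replicates (A with B, C with D) gave 2 and 10 for the same counts. Replicates A and B alone gave 5 higher for sibcat against control and 1 lower for siTAZ against APC, and C and D alone gave 1 higher for APC against control and for APC against sibcat. ACTB as a covariate gave 1 higher for APC against control. Over both A and B alone and C and D alone, with 2 arrays a group, the calls against control on H1-3 and H4C5 in siTAZ, on H2AC25 in sibcat and on H2AC25 and H2AC14 in APC arrays were lost. With 1 replicate left out, counts against control ran from 5 to 9 higher and 2 to 4 lower in sibcat and from 0 to 1 higher in APC arrays; siTAZ against sibcat had 0 to 1 higher, APC against sibcat 1 to 4 higher and siTAZ against APC 1 to 4 lower. On the mean of its probe sets H3C6 reversed in sibcat arrays to 0.28 (limma adjusted p = 0.012), and CSTF3 reversed in siTAZ arrays to -0.21 (limma adjusted p = 0.031) without probe sets matching several transcripts. Where no construction is named, the cause was not tested. Signals below 5.10 may be largely background, which limits the size of falls to that level.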
